A study of Mus musculus and Rattus norvegicus with 30 samples.

Results

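Neurotrophins are secreted growth factors that keep sensory neurons alive during development and tune them in the adult. Brain-derived neurotrophic factor (Bdnf), neurotrophin-3 (Ntf3) and the neurotrophin of the gene Ntf5, also named Ntf4, are made as precursors that proteases cut to the mature form. The mature factors bind Trk receptor tyrosine kinases, TrkB (Ntrk2) for Bdnf and the Ntf5 product and TrkC (Ntrk3) for Ntf3, while the precursors bind p75 (Ngfr) together with sortilin-type partners. In the dorsal root ganglion (DRG), the cluster of sensory neurons beside the spinal cord, TrkC marks proprioceptors and other large-fibre neurons and TrkB marks a class of touch receptors. The 6 genes Ntrk2, Ntrk3, Ngfr, Bdnf, Ntf3 and Ntf5 were taken by symbol from 54315 features of the mouse count table and 39281 of the rat table. Their measured values did not enter this rule, but earlier results of these data were known when the genes were chosen. All 6 were listed in both, Ntf5 in rat through its synonym Ntf4.

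DRG of BALB/c and B10.D2 mice and of Wistar rats were sequenced after nerve injury or sham surgery, in which the nerve is left intact. The mouse model was spared nerve injury (SNI), which leaves the tibial branch of the sciatic nerve whole and severs the sural and common peroneal branches. The groups were 6 BALB/c sham (3 males, 3 females), 4 BALB/c SNI (2 males, 2 females), 5 B10.D2 sham (3 males, 2 females) and 5 B10.D2 SNI libraries (2 males, 3 females), each from L3 and L4 DRG of 1 animal and depleted of ribosomal RNA. Rats had spinal nerve transection (SNT), in which the L5 spinal nerve is ligated and cut, and the 4 sham and 4 SNT libraries were poly-A RNA from L5 DRG, each from 3 pooled males. No transgene or knockout was used. The L3 and L4 ganglia also hold neurons whose axons were not cut by SNI, so mouse values average injured and intact cells, and in whole ganglia fewer cells of a type and less RNA per cell cannot be told apart. Library totals lay between 30.0 and 41.9 M counts for the mice and between 11.95 and 17.9 M for the rats. Neuronal markers were present, the summed level of 7 pan-neuronal genes being 6179 to 7667 CPM in mouse. CPM are counts per M counts of the library after trimmed-mean (TMM) scaling, where M is mega. The injury-response list (Atf3, Sprr1a, Gal, Npy, Gap43 and others) rose after injury, with 10 of 10 genes called in the BALB/c, 9 of 10 in the B10.D2 and 7 of 7 tested genes in the rat comparison. In rat, sham library 4 stood apart, with 995 CPM summed over this list against 374 to 418 CPM in the other sham libraries, and SNT library 1 was the lowest of the injured libraries at 1262 CPM. On the first principal component, which held 68.1% of the variance, these 2 libraries lay between the other sham and the other SNT libraries, and the results of the rat members and gene lists are also given without them, a choice made after the data were seen.

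The deposited list of splice junctions names exon junctions that the pooled mouse reads covered. It names junctions without counts, so presence can be read from it and amount cannot. The filter behind it was not known here, so a junction that is not listed is not read as absent. It held 81.4% of the 116214 annotated introns of protein-coding genes with a mean of 10 to 100 CPM and 81.2% of those at 100 CPM or more. Positions are on GRCm38 (mm10) with GENCODE M21. Ntrk2 lies at chr13:58806569-59133970 on the plus strand, and 18 of its 23 annotated introns were listed.

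Ntrk3 lies at chr7:78175959-78738012 on the minus strand, and 27 of its 50 annotated introns were listed, including all 16 of the full-length form of 825 codons (Ntrk3-201). The introns into the truncated form of 612 codons (Ntrk3-202) and around the kinase insert of the forms of 839 and 864 codons (Ntrk3-205 and Ntrk3-206) were not. This does not show that those forms were absent. The pair of sequences shows how the forms part, with the shared last 15 bases before the splice in lower case and the first 15 bases of the next exon in capitals, for intron chr7:78260415-78356026 of the full-length form and intron chr7:78304427-78356026 of the truncated form.
Ntrk3 full length, listed: acaagccagacacatATGTTCAGCACATCA
Ntrk3 truncated, not listed: acaagccagacacatGGGTCTTTTCAAACA
Counts per gene sum over all these forms. Ngfr, at chr11:95568818-95587735 on the minus strand, had 5 of 5 introns listed.

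Bdnf, at chr2:109674700-109727007 on the plus strand, is read from alternative first exons that are each spliced to 1 shared coding exon. Of its 11 annotated introns 7 were listed, and all 7 ended at chr2:109723381, just before the coding exon. The sequences show the last 15 bases of each first exon in lower case, which differ, and the first 15 of the coding exon in capitals, which are shared.
Bdnf-201, intron chr2:109675340-109723381: agcaaagccacaatgTTCCACCAGGTGAGA
Bdnf-208, intron chr2:109676101-109723381: tagtacttcatccagTTCCACCAGGTGAGA
Bdnf-207, intron chr2:109676313-109723381: cttggcaagctccggTTCCACCAGGTGAGA
Bdnf-210, intron chr2:109676396-109723381: taagccgcaaagaagTTCCACCAGGTGAGA
Bdnf-206, intron chr2:109677225-109723381: cttcattgagcccagTTCCACCAGGTGAGA
Bdnf-209, intron chr2:109692775-109723381: tagtgactgaaaaagTTCCACCAGGTGAGA
Bdnf-205, intron chr2:109693910-109723381: tgtgtggaccctgagTTCCACCAGGTGAGA
Ntf3, at chr6:126101412-126166910 on the minus strand, had 2 of 3 introns listed, and Ntf5, at chr7:45413695-45417179 on the plus strand, had 0 of 3.

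The 3 receptors lay above the 3 ligands in mouse DRG, by least for Bdnf and by far for Ntf3 and Ntf5. Per kb of merged exons and over all 20 mouse libraries, Ngfr had the highest level at 114 ± 16.1 CPM per kb (SD, n = 20), followed by Ntrk3 at 17.9 ± 2.58 (SD, n = 20), Ntrk2 at 14.3 ± 1.36 (SD, n = 20), Bdnf at 4.60 ± 1.26 (SD, n = 20), Ntf3 at 0.355 ± 0.125 (SD, n = 20) and Ntf5 at 0.0171 ± 0.0150 CPM per kb (SD, n = 20). Neighbours in this order did not overlap in range, except Ntrk3 and Ntrk2, whose order held in 16 of 20 libraries. Among protein-coding genes with at least 1 count, the BALB/c sham mean per kb was at percentile 98.9 for Ngfr, 88.9 for Ntrk3, 83.3 for Ntrk2, 55.3 for Bdnf and 28.6 for Ntf3. Ntf3 gave 10 to 36 counts per library. Ntf5 gave 0 to 5 counts, and 17 of 20 libraries had 3 counts or fewer, which is the level that a count of 0 allows, so Ntf5 was not tested and a change in it was not detectable at this depth. The merged exons of Ntrk3 and Ntrk2 span 30.2 and 19.3 kb, and a value per kb depends on this length.

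**Figure D1:**
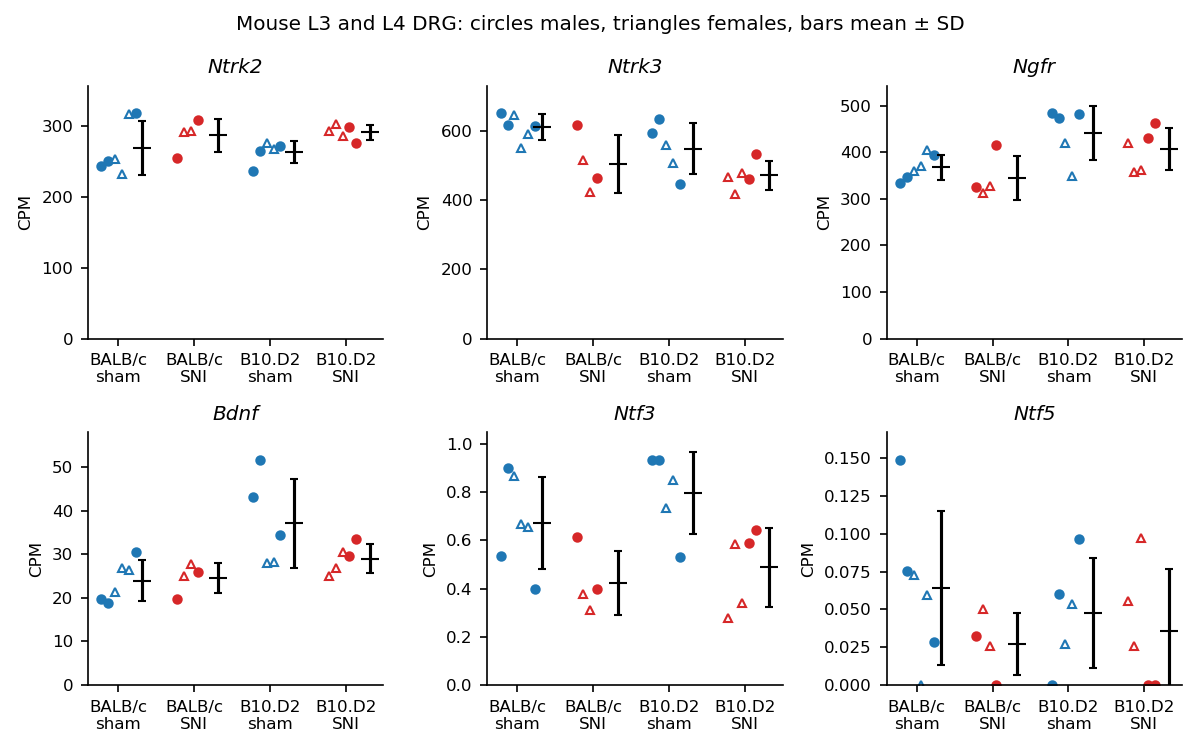
Level of the 6 genes in CPM (y axis, from 0) in the 20 mouse libraries by strain and surgery (x axis), with filled circles for males, open triangles for females, blue for sham and red for SNI. Black bars are the mean ± SD of each group, and for Ntf5 in B10.D2 SNI the bar is cut at 0. Ntrk3 in 3 of 4 BALB/c SNI libraries lay below all 6 sham libraries, and Bdnf was highest in the B10.D2 sham males.

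The first comparison asks whether the neurotrophin system moves in the ganglia of injured BALB/c mice, the first of the strains studied. No member passed the adjusted p of 0.05 in edgeR, against 9.69% of the 24685 features tested (4.82% higher and 4.87% lower). Ntrk3 was 611.7 ± 37.2 (SD, n = 6) in sham against 505 ± 83.7 CPM (SD, n = 4) in SNI. The 6 sham libraries ran from 550 to 652 CPM with a median of 616, and the SNI libraries were at 617, 517, 423 and 464 CPM. Of the 4 SNI libraries 3 lay below the sham range, and library 49 lay within it. The log2 fold change was -0.28 (SE 0.09, adjusted p = 0.0575 in edgeR).

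The call on Ntrk3 in BALB/c therefore depended on the method. Its adjusted p was 0.0245 in DESeq2 and 0.0144 in edgeR without a filter on low counts. Ntrk3 stayed uncalled with other scaling and with a stricter count filter. It also stayed uncalled in 18 of the 20 edgeR fits that each left out a single library. The log2 fold changes of all 20 ran from -0.37 to -0.22. Without SNI library 49 the log2 fold change was -0.37 (adjusted p = 0.0139 in edgeR), and without library 88, a B10.D2 sham male outside this contrast, it was -0.28 (adjusted p = 0.0232 in edgeR).

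Ntf3, the ligand of TrkC, averaged 0.672 ± 0.192 (SD, n = 6) in the BALB/c sham group and 0.425 ± 0.133 CPM (SD, n = 4) in SNI. The SNI libraries held 12 to 19 counts and 3 of 4 lay below the lowest sham library. Its log2 fold change was -0.69 (SE 0.28, adjusted p = 0.135 in edgeR), which rests on few counts. Ntrk2 was 268 ± 38.2 (SD, n = 6) in sham against 287 ± 23.1 CPM (SD, n = 4) in SNI, and all 4 SNI libraries lay within the sham range. Ngfr was 325, 312, 327 and 416 CPM in the SNI libraries, 3 below and 1 above the sham range of 335 to 405 CPM. Its log2 fold change was -0.10 with a 95% interval from -0.28 to 0.08, and that of Bdnf was 0.04 with an interval from -0.29 to 0.38. For these 3 genes the interval, not the p, bounds what the data allow.

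In B10.D2 mice no member was called either, against 4.58% of all features (2.1% higher and 2.48% lower). Ntrk2 was 236, 265, 275, 267 and 271 CPM in the 5 sham libraries and 293, 302, 285, 298 and 276 CPM in the 5 SNI libraries. The groups did not overlap, with every SNI library above every sham library, yet the difference was small, at a log2 fold change of 0.14 (SE 0.08, adjusted p = 0.407 in edgeR). Ntrk3 was 548 ± 73.0 (SD, n = 5) in sham against 472 ± 41.5 CPM (SD, n = 5) in SNI, a log2 fold change of -0.20 (SE 0.09, adjusted p = 0.263 in edgeR), and 1 SNI library lay below the sham range. Ntf3 had a log2 fold change of -0.68 (SE 0.26, adjusted p = 0.170 in edgeR).

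Bdnf in B10.D2 was 37.1 ± 10.3 (SD, n = 5) in sham against 29.0 ± 3.30 CPM (SD, n = 5) in SNI, a log2 fold change of -0.32 (SE 0.16, adjusted p = 0.312 in edgeR). The 3 sham males were at 43.1, 51.7 and 34.4 CPM and the 2 sham females at 28.0 and 28.2 CPM. All 3 males lay above every SNI library of B10.D2, whose highest value was 33.4 CPM, and the females lay within the SNI range of 24.9 to 33.4 CPM. With males alone the log2 fold change was -0.45, and with females alone it was -0.04. The sex by injury interaction for Bdnf, a single term common to both strains, was 0.20 on the log2 scale (SE 0.23, adjusted p = 0.939 in edgeR). A difference between the sexes within B10.D2 alone was not tested.

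The strain by injury interaction, which asks whether injury acted differently in the 2 strains, was called for no member and for 0.0243% of all features. The differences in log2 fold change, B10.D2 minus BALB/c, were 0.04 for Ntrk2, 0.08 for Ntrk3, 0.01 for Ngfr, -0.36 for Bdnf and 0.02 for Ntf3, and every 95% interval spanned 0. The widest were those of Ntf3, from -0.75 to 0.79, and of Bdnf, from -0.83 to 0.10. A fit that gave both strains 1 common injury effect, added after the data were seen, called 16.9% of features and 2 members. In it the log2 fold change was -0.24 for Ntrk3 (SE 0.06, adjusted p = 0.0112 in edgeR) and -0.68 for Ntf3 (SE 0.19, adjusted p = 0.0136 in edgeR). Both genes thus fell with injury over the pooled 9 SNI and 11 sham libraries, while neither was called in a single strain by the main model. The ratio of Ntrk3 to Ntrk2 counts, a description without a test, was 2.31 ± 0.334 (SD, n = 6) in BALB/c sham, 1.79 ± 0.451 (SD, n = 4) in BALB/c SNI, 2.10 ± 0.356 (SD, n = 5) in B10.D2 sham and 1.63 ± 0.202 (SD, n = 5) in B10.D2 SNI.

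Most markers of large-fibre neurons fell after SNI, while Ntrk3 itself was called in neither strain by the main model. Of 8 genes of that list 5 fell in BALB/c, beside 9.69% of all features called, and 6 in B10.D2, beside 4.58%. Among them were Pvalb, which encodes the calcium buffer parvalbumin, at -0.95 and -1.26 on the log2 scale, and Etv1, a transcription factor of proprioceptors, at -0.55 and -0.53. The summed level of the list was 2011 to 2467 CPM in BALB/c sham against 1317 to 1618 CPM in SNI, and 1621 to 2153 against 1203 to 1457 CPM in B10.D2. Of 6 satellite glia markers 2 rose in BALB/c, where the summed level was 1182 to 1312 CPM in sham against 1326 to 1567 CPM in SNI, and 1 rose in B10.D2, at 1157 to 1207 against 1172 to 1366 CPM. Of 6 macrophage markers 2 rose in BALB/c, at 63.8 to 157 CPM in sham against 111 to 177 CPM in SNI, and 0 in B10.D2, at 121 to 148 against 132 to 208 CPM. Of 6 fibroblast and vessel markers 2 rose in BALB/c, at 634 to 848 CPM in sham against 752 to 1132 CPM in SNI, and 1 in B10.D2, at 822 to 908 against 819 to 1213 CPM. No gene of the 6 Schwann cell markers was called in either strain, and their summed level was 1872 to 4558 CPM in BALB/c sham against 2592 to 3049 CPM in SNI and 2459 to 2670 against 2225 to 2629 CPM in B10.D2. Of 6 nociceptor markers 0 were called in either strain. Their summed level was 2670 to 3356 CPM in BALB/c sham against 2664 to 2894 CPM in SNI, and 2742 to 3220 against 2459 to 2965 CPM in B10.D2. Of 7 pan-neuronal markers 1 rose and 1 fell in BALB/c, and 1 fell in B10.D2. None of these markers was at 0. The part of these cells in the levels of Ntrk3 was not tested.

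**Figure D2:**
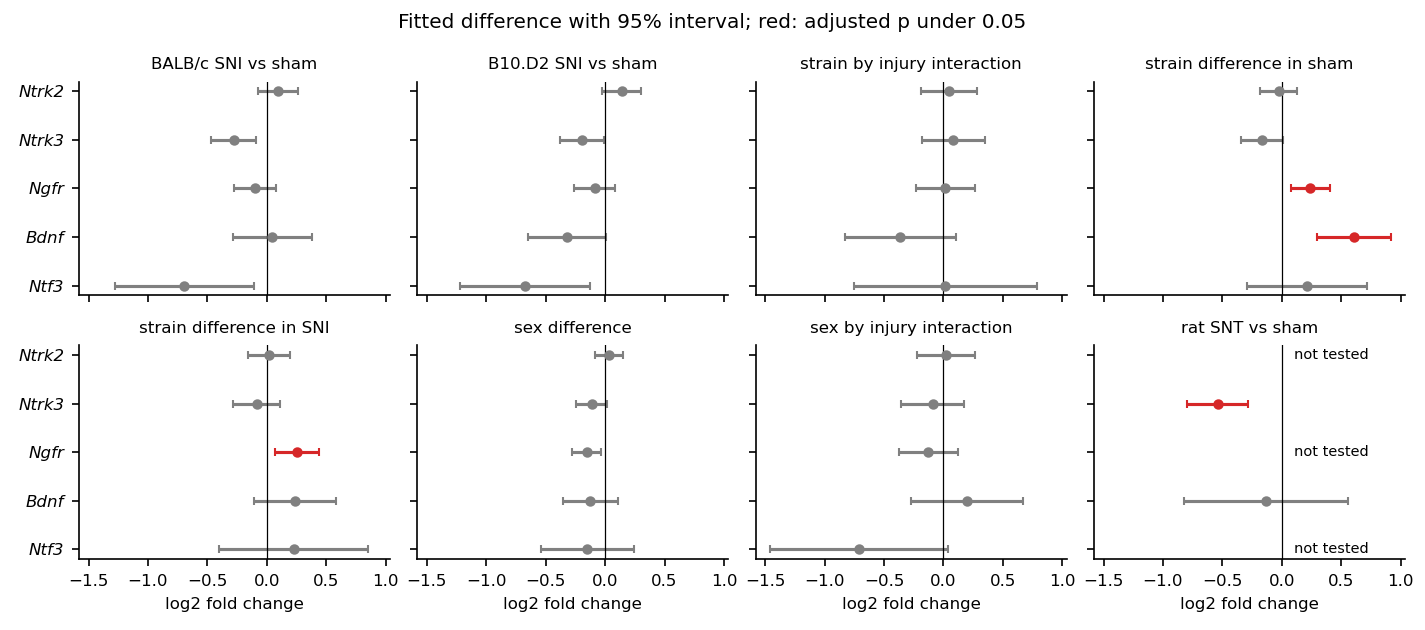
Fitted log2 difference (x axis) with its 95% interval for each tested gene (y axis) in the 8 comparisons, with red for an adjusted p under 0.05 in edgeR and grey otherwise. Strain differences are B10.D2 minus BALB/c and the sex difference is female minus male. Ntrk3 lay left of 0 in both mouse injury comparisons and was called in rat, at -0.54, while Bdnf and Ngfr were called between strains.

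The strains differed in sham animals for 2 of the 5 tested members, against 21.6% of all features. Bdnf was 23.9 ± 4.65 CPM (SD, n = 6) in BALB/c and 37.1 ± 10.3 CPM (SD, n = 5) in B10.D2, a log2 difference of 0.60 (SE 0.15, adjusted p = 0.00505 in edgeR). The BALB/c libraries ran from 18.8 to 30.5 CPM with a median of 23.8, and the 3 B10.D2 males lay above that range while the 2 females lay inside it. This call was kept when any 1 of the 20 libraries was left out. Ngfr was 368 ± 27.0 CPM (SD, n = 6) in BALB/c and 442 ± 57.9 CPM (SD, n = 5) in B10.D2, a log2 difference of 0.24 (SE 0.08, adjusted p = 0.0352 in edgeR). Of the 5 B10.D2 libraries 4 lay above the BALB/c range of 335 to 405 CPM. The 3 B10.D2 males were at 474 to 484 CPM and the 2 females at 350 and 420 CPM. The mean of Ngfr in sham males was 358 CPM in BALB/c and 480 CPM in B10.D2. In sham females it was 378 and 385 CPM. A strain by sex difference was not tested.

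The Ngfr call was fragile. It was lost without any 1 of 7 sham libraries, namely 50, 51 or 71 of BALB/c (adjusted p = 0.0930, 0.0936 and 0.0522 in edgeR) and 58, 60, 67 or 88 of B10.D2 (adjusted p = 0.0790, 0.0698, 0.0777 and 0.0809 in edgeR), with differences of 0.19 to 0.31 over all 20. In SNI animals Ngfr again was higher in B10.D2, 407 ± 45.9 CPM (SD, n = 5) against 345 ± 47.9 CPM (SD, n = 4), which is a log2 difference of 0.25 (SE 0.09, adjusted p = 0.0465 in edgeR), and 20.8% of features were called (10.9% higher and 9.98% lower). That call was lost without any 1 of 12 libraries and without sex in the model (adjusted p = 0.103 in edgeR). The other members were not called between strains, and the Bdnf difference in SNI was 0.24 (SE 0.17, adjusted p = 0.349 in edgeR).

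No member was called between the sexes, against 0.243% of all features. The largest difference among those with a p under 0.05 was that of Ngfr, -0.15 on the log2 scale, female minus male (SE 0.06, unadjusted p = 0.0165, adjusted p = 0.293 in edgeR). The sex by injury interaction was called for 0 of 25143 features in edgeR and 2 in DESeq2. An unadjusted p under 0.05 in edgeR was found for 1353, little above the number that this threshold passes where nothing differs. For Ntf3 the interaction was -0.71 on the log2 scale (SE 0.36, adjusted p = 0.892 in edgeR).

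In rat, SNT was compared with sham in the injured ganglion itself, and Ntrk3 fell. It was 127, 132, 121 and 94.1 CPM in the 4 sham libraries and 86.2, 81.0, 81.0 and 77.99 CPM in the 4 SNT libraries. The groups did not overlap, and sham 4 was the lowest sham library. The sham mean of 119 ± 16.8 CPM (SD, n = 4) stood against 81.5 ± 3.395 CPM (SD, n = 4) in SNT, which is a log2 fold change of -0.54 (SE 0.12, 95% interval from -0.80 to -0.28, adjusted p = 0.0132 in edgeR), and 27.4% of 13690 features were called, 15.1% as lower. The call was kept without any 1 of the 8 libraries. Without sham 4 and SNT 1, where 43.9% of 13892 features were called, the log2 fold change was -0.66 (adjusted p = 0.000686 in edgeR). Those libraries were picked for lying between the groups, and they held the lowest sham and the highest SNT value of Ntrk3. Leaving them out widens the difference by itself, so this fit adds no support to the call.

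Bdnf was 44.6, 58.98, 56.9 and 77.8 CPM in rat sham and 84.8, 31.4, 34.5 and 66.7 CPM in SNT. The highest value of each group was that of the library that lay between the groups, sham 4 and SNT 1. The SNT libraries spanned a range wider than that of sham and surrounded it, and the log2 fold change was -0.14 (SE 0.31, adjusted p = 0.767 in edgeR). Leaving out 1 library moved it between -0.43 and 0.065, and without sham 4 and SNT 1 it was -0.28 (adjusted p = 0.423 in edgeR).

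**Figure D3:**
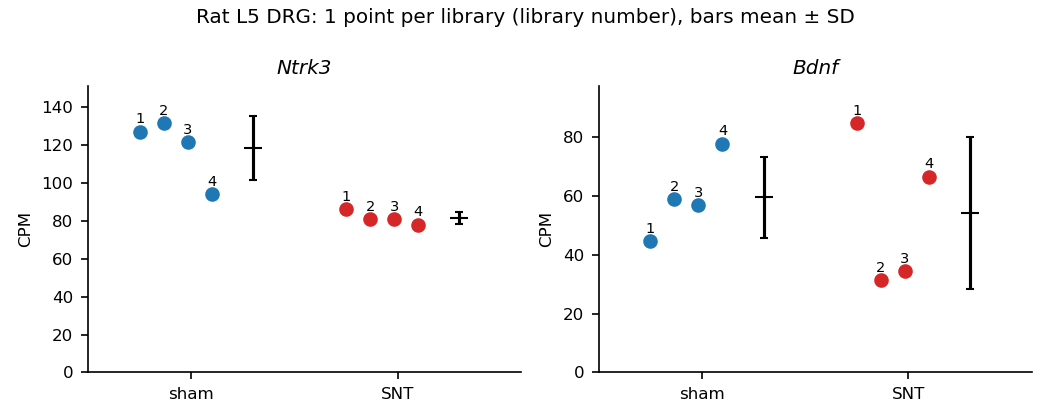
Level of Ntrk3 and Bdnf in CPM (y axis, from 0) in the 4 sham (blue) and 4 SNT (red) rat libraries, numbered as in the text, with black bars for the mean ± SD. Ntrk3 did not overlap between the groups, while the SNT libraries of Bdnf lay both above and below the sham libraries.

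The other rat members gave no comparison. Ntf3 had 0 to 2 counts and Ntf4, the rat gene matched to Ntf5, 1 to 5 counts per library, so neither was tested. Ntrk2 and Ngfr were listed at 0 in all 8 libraries. The 20 mouse protein-coding neighbours of each were looked up by symbol in the rat table, and 20 of 20 were at 0 for Ntrk2 and 20 of 20 for Ngfr. For Ntrk3, Bdnf and Ntf5 0 of 20 neighbours were at 0, for Ntf3 1 of 20, and over all matched protein-coding symbols 6139 of 15639. All assembled rat LncRNAs mapped to chromosomes 1 to 9 or the sex chromosomes and none to 10 to 20, although the rat junction list covered all of these. A value of 0 for Ntrk2 and Ngfr is therefore not read as absence, and how it arose was not tested.

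In rat the large-fibre list was again lower, with 3 of 5 tested genes called, beside 27.4% of all features. Pvalb was at -3.11 and Etv1 at -1.04 on the log2 scale. Its summed level was 879 to 1391 CPM in sham and 436 to 778 CPM in SNT. Markers of nociceptors were lower in 4 of 6 genes, among them Mrgprd at -3.12 and Scn11a at -2.71 on the log2 scale, with a summed level of 2193 to 3672 CPM in sham and 329 to 2081 CPM in SNT. Satellite glia markers rose in 2 of 2 tested, at 1099 to 1294 CPM summed in sham and 1490 to 2290 CPM in SNT. Of 2 tested Schwann cell markers 1 rose, at 1017 to 1497 against 1181 to 2433 CPM, and of 2 fibroblast and vessel markers 1 rose, at 878 to 2003 against 1855 to 2695 CPM. Of 2 macrophage markers 0 was called, at 60.6 to 245 against 204 to 273 CPM. Of the satellite glia, Schwann cell and macrophage lists 4 of 6 genes each were listed at 0, and of the fibroblast and vessel list 3 of 5. Without sham 4 and SNT 1 the share of all features called rose to 43.9%. In that fit 4 of 5 large-fibre and 6 of 6 nociceptor markers fell. Of the other lists 2 of 2 satellite glia, 2 of 2 Schwann cell, 2 of 2 macrophage and 1 of 2 fibroblast and vessel markers rose. Their part in the fall of Ntrk3 was not tested.

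The genes that act around the receptors were described with lists chosen by role. Among 16 Trk adaptors, which link the active receptor to its kinase cascades, 1 rose in BALB/c, beside 9.69% of all features called. In B10.D2 2 rose, beside 4.58% of all features called. Gab1, a docking protein, rose in both. In BALB/c its sham level of 82.6 ± 3.74 (SD, n = 6) went to 94.2 ± 2.07 CPM (SD, n = 4) after SNI, and in B10.D2 the sham level of 81.8 ± 4.33 (SD, n = 5) went to 95.01 ± 5.15 CPM (SD, n = 5), log2 fold changes of 0.19 and 0.20 (adjusted p = 0.00753 and 0.00733 in edgeR). The groups did not overlap in either strain. Gab2, its relative, rose by 0.23 in B10.D2 (adjusted p = 0.0124 in edgeR). In rat 3 of 10 tested adaptors rose, beside 27.4% of all features called. They were Sh2b1 at 0.47, Rapgef1 at 0.44 and Shc4 at 0.43 on the log2 scale. Of the 16 adaptors 6, including Gab1, were listed at 0 in rat.

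Among 13 partners of p75, 4 rose in BALB/c, beside 9.69% of all features called, and 0 were called in B10.D2, beside 4.58%. In the strain by injury interaction 0 of the 13 were called, and each of the 4 calls was lost without any 1 of 4 to 6 libraries. They were Nradd, a p75-related death-domain protein, at 0.48 and the sortilin family receptors Sorcs2 at 0.35, Sorcs3 at 0.22 and Sorcs1 at 0.20 on the log2 scale (adjusted p = 0.0260, 0.0336, 0.0294 and 0.0215 in edgeR). In rat 4 of 10 tested were called, in both directions, beside 27.4% of all features. Sorcs1 rose by 0.54 and Traf6, a signalling ligase, by 0.47, whereas Sorcs3 was -1.19 and Lingo1, a co-receptor of p75, -1.06 on the log2 scale. These rat calls too were each lost without any 1 of 4 to 6 libraries. Sorcs3 thus rose in BALB/c and fell in rat, in designs that differ in injury, ganglion, RNA selection and species, and the difference was not tested.

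Among 13 genes that process or release neurotrophin precursors, 2 of 10 tested were called in BALB/c, beside 9.69% of all features. Plat, the tissue plasminogen activator, rose from a sham mean of 28.6 ± 5.22 (SD, n = 6) to 42.9 ± 8.25 CPM (SD, n = 4), at 0.59 on the log2 scale (adjusted p = 0.00869 in edgeR), and Pcsk2, a prohormone convertase, fell from a sham mean of 241.5 ± 14.8 (SD, n = 6) to 199.5 ± 13.8 CPM (SD, n = 4), at -0.28 (adjusted p = 0.00462 in edgeR). None was called in B10.D2, beside 4.58% of all features. In rat 4 of 11 were called, beside 27.4% of all features. They were Pcsk2 at -0.98, Cadps2, which aids release of dense-core vesicles, at -1.45, Furin at 0.61 and Mmp9 at 4.75 on the log2 scale. Mmp9 was 3.05 CPM in its lowest and 164 CPM in its highest SNT library with a median of 4.03 CPM, against 1.43 to 1.95 CPM in sham, and without SNT library 3, the highest, its log2 fold change was 1.20 (adjusted p = 0.0336 in edgeR).

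Among 9 regulators of Trk signalling, Dusp6, a phosphatase of the ERK kinases, rose by 0.47 and Lrig1, a membrane protein that restrains receptor signalling, by 0.30 on the log2 scale in BALB/c (adjusted p = 0.0454 and 0.0380 in edgeR), and 0 of 9 was called in B10.D2. In rat Dusp6 rose by 0.95, Spry1 by 0.73 and Lrig1 by 0.58 on the log2 scale, 3 of 6 tested. Over the 4 lists together, 9 of 48 tested genes were called in BALB/c, 2 of 48 in B10.D2 and 14 of 37 in rat, beside 9.69%, 4.58% and 27.4% of all features. The median log2 fold changes were 0.014, 0.016 and 0.18, beside a median over all features of 0.0033, 0.0076 and 0.0027. No gene of these lists was called in the strain by injury interaction. Leaving out single libraries moved the counts to 3 to 9 for BALB/c, 1 to 3 for B10.D2 and 7 to 19 for rat. In BALB/c Gab1 and Pcsk2 kept their calls without any 1 library and Plat lost it without SNI library 70, whereas Dusp6 and Lrig1 lost theirs without any 1 of 9 libraries, Nradd and Sorcs2 without any 1 of 6, Sorcs3 of 5 and Sorcs1 of 4. In B10.D2 Gab1 kept its call and Gab2 lost it without SNI library 90. In rat Pcsk2, Cadps2, Lrig1, Dusp6 and Spry1 kept theirs, and the other 9 lost it. Sorcs1 and Lingo1 lost their calls without any 1 of 6 of the rat libraries and Sorcs3 and Shc4 without any 1 of 5. Traf6 and Furin lost theirs without any 1 of 4, Mmp9 of 3, and Rapgef1 and Sh2b1 of 2. Without sham 4 and SNT 1, 21 of 36 tested pathway genes were called in rat, including the 14, beside 43.9% of all features.

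**Figure D4:**
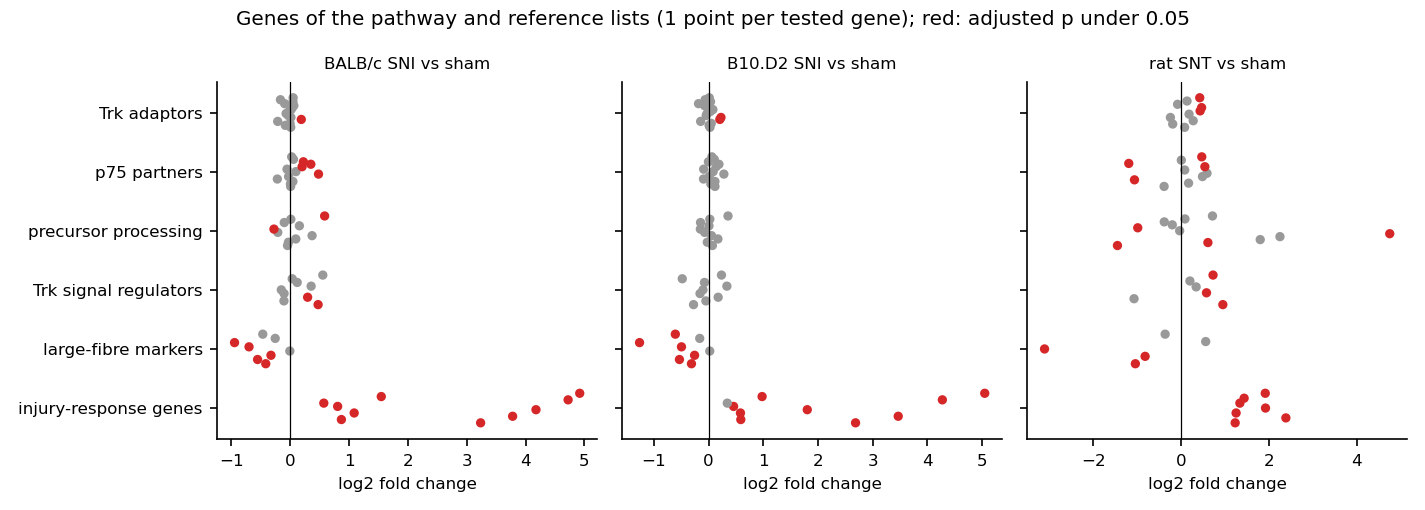
Log2 fold change of injured over sham (x axis, its range differing between panels) for every tested gene of 4 pathway lists, the large-fibre markers and the injury-response genes (y axis, 1 point per gene), with red for an adjusted p under 0.05 in edgeR. The pathway genes of the mouse lay within 1 log2 unit of 0, while injury-response genes reached 4.92 in the BALB/c panel and 5.05 in the B10.D2 panel.

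The genes most alike to each member were named as the 3 with the highest Pearson correlation of log2(CPM + 1), after removal of the strain means, over the 20 mouse libraries and 14413 genes. They are descriptions, since the points share libraries, depth and injury status. Ntrk3 was most alike to Enah (r = 0.971), Slc24a2 (r = 0.951) and Kcna2 (r = 0.934). Ntrk2 was most alike to Chrna3 (r = 0.916), Hoxc11 (r = 0.914) and Hoxd10 (r = 0.908), and Ngfr to Tbc1d10b (r = 0.941), Clptm1 (r = 0.934) and Ano8 (r = 0.933). Bdnf was most alike to Nptx2 (r = 0.869), Ptpn9 (r = 0.838) and Plk3 (r = 0.796).

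Of the assembled LncRNAs, long transcripts that the authors built from reads outside annotated genes, 4 lay within 50 kb of a member in mouse. LncRNA2522 and LncRNA2523 lay inside Ntrk2 on its strand, between exons, at chr13:58948254-58957714 and chr13:58967442-58979429, with means of 5.01 ± 0.942 and 4.94 ± 0.952 CPM (SD, n = 20). Their place on the Ntrk2 strand inside an intron means that their reads and those of unspliced Ntrk2 RNA cannot be told apart. LncRNA4131 lay on the strand opposite to Bdnf, 1151 bases from it at chr2:109660892-109673549, with 13 exons and 0.549 ± 0.156 CPM (SD, n = 20). LncRNA1378 lay 40564 bases from Ntf5 and had 0.274 ± 0.113 CPM (SD, n = 20). None was called after SNI in either strain in edgeR. For LncRNA4131 the log2 fold change in BALB/c was 0.52 (SE 0.26, adjusted p = 0.240 in edgeR), and without BALB/c sham library 57 it was 0.77 (adjusted p = 0.0465 in edgeR).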

How the data were processed

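The deposited count tables hold whole-number counts of read pairs per feature. Per the study's methods, the authors aligned strand-specific reads with STAR to mm10 and rn6, counted pairs with HTSeq, and assembled LncRNAs from reads outside gene models. The deposited result tables served for gene symbols alone, and their columns of the authors' own comparisons (mean signal, log2 fold change, score, p-value and adjusted p-value) were not used. Libraries were scaled by TMM, features were filtered by filterByExpr, and tests were two-sided quasi-likelihood F tests (edgeR 4.0.16, R 4.3.3), with sex and strain by surgery in mouse and surgery alone in rat. The p-values were adjusted (Benjamini-Hochberg) over all features tested, and a feature under 0.05 is called. SE is the absolute log2 fold change over the square root of F. The models were tested on simulated data. DESeq2 1.42.0, other filters and scaling, and single libraries left out were tried as alternatives. The members, lists and tests were chosen with earlier results of these data known. Named besides the members are called genes of the pathway lists with at most 3 per list and comparison, at most 2 markers per list, like genes and nearby LncRNAs, and where a list had 4 called genes the fourth was named after its values were seen. Of 30 labelled samples 2 mouse samples (1 B10.D2 sham, 1 BALB/c SNI) were not analysed here. Mouse libraries carry the number of their title and rat libraries are numbered within groups. Separate animals are named for mouse, and pools for rat. Floors of 3 counts cover counting error alone. Of the Ntrk2 junctions, only the number listed is given, and their sequences and positions are not reported here.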

Additional observations from a re-analysis of the deposited data

Results flagged for a closer look

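In 3 of 32 groups of libraries, 1 library stood far from the others of its group by the ratio of its gap to the group's range, where chance flags about 1 group in 20. Ntrk2 in B10.D2 sham library 58 was 236 CPM, below the other 4. Ngfr in BALB/c SNI library 70 was 416 CPM, above the other 3. Ntf3 in rat SNT library 4 was 0 CPM, where the other 3 libraries held 1 count each, so it differs by a single count. No member was called in the strain by injury or the sex by injury interaction.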

How the results depend on the processing

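Members called in BALB/c SNI numbered 0, but 1 without a filter on low counts and 1 in DESeq2 (Ntrk3 in both). With 1 common injury effect for both strains, a fit of another form, 2 members and 9 pathway genes were called over both strains, beside 0 members in either strain and 9 pathway genes in BALB/c or 2 in B10.D2. Without sex in the model 0 members, in place of 1, differed between strains in SNI. Without single libraries the members called were 0 to 1 in BALB/c, 1 to 2 between strains in sham and 0 to 1 in SNI, and pathway genes called were 3 to 9 in BALB/c, 1 to 3 in B10.D2 and 7 to 19 in rat. Some differences that were not called changed sign. With males alone in BALB/c, Ngfr was 0.044 and Bdnf -0.019, and the common effect of Bdnf over both strains was -0.14. Without sex in the model the strain by injury differences were -0.027 for Ngfr and -0.014 for Ntf3. Leaving out 1 library moved Bdnf in BALB/c from -0.060 to 0.16 and in rat from -0.43 to 0.065. It moved the strain by injury difference of Ntrk2 from -0.024 to 0.088, of Ngfr from -0.054 to 0.084 and of Ntf3 from -0.11 to 0.20. The strain difference of Ntrk2 ran from -0.069 to 0.038 in sham and from -0.033 to 0.062 in SNI, and that of Ntrk3 in SNI from -0.16 to 0.0046. For Ntrk2 the sex difference ran from -0.0011 to 0.069 and the sex by injury difference from -0.051 to 0.084. The cause of these shifts was not tested.

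Each rat sham library shares the first number of its title with an SNT library, and the labels do not say what it stands for. Deviations of same-numbered libraries correlated at 0.053, -0.23, -0.08 and -0.07. These few correlations, taken around means of small groups, cannot decide whether same-numbered libraries share an effect. With this number as a block in the model, 2558 in place of 3753 features were called, and Ntrk3 remained called at -0.52 (adjusted p = 0.0320 in edgeR). Depth limits Ntf3 and Ntf5, and the rat table limits Ntrk2 and Ngfr. Other scaling and a stricter count filter moved no count of called members.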
